A study of Mus musculus with 4 samples.

Results

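Surface markers of preadipocytes and mesenchymal stromal cells were followed in 3T3-L1, mouse cells that turn from preadipocytes into fat cells when given adipogenic hormones, of which 4 stable lines were sequenced. The 8 genes are Pdgfra, Pdgfrb, Ly6a, Thy1, Dlk1, Cd44, Eng and Vcam1. They were picked out of the table by symbol, and each matched 1 row of RefSeq transcripts, so that all 8 members were found among 13085 genes. FLAG cells carried the empty FLAG vector, FLAG-CACUL1 cells a FLAG-tagged CACUL1 construct, sh-Luc cells a short hairpin RNA against luciferase and sh-CACUL1 cells a hairpin against CACUL1. The FLAG lines had been selected with G418 and the hairpin lines with Hygromycin B after plasmid transfection, and whether resistant colonies were pooled is not given in the sources used here. All lines were grown to confluence and received IBMX at 0.5 mM, rosiglitazone at 5 μM, dexamethasone at 1 μg/mL and insulin at 5 μg/mL, and differentiation had run to day 8 when RNA was extracted. Each line was sequenced once, so no difference has a replicate check and none was tested.

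Preadipocytes are fibroblast-like precursors that exchange a stromal surface for the lipid-handling genes of the adipocyte as they differentiate. PDGFRα and PDGFRβ are receptor tyrosine kinases for platelet-derived growth factors and are widely used to recognise adipose progenitors and perivascular stroma. DLK1, also called Pref-1, is a transmembrane protein with EGF-like repeats whose shed form restrains adipogenesis, and its mRNA is known to decline when 3T3-L1 cells become fat cells. LY6A and THY1 are held to the membrane by a lipid anchor and are used to sort mesenchymal cells, CD44 binds hyaluronan, VCAM1 binds integrins, and endoglin is a co-receptor for ligands of the TGF-β family.

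Levels are in FPKM, the unit deposited by the authors, which divides a gene's fragments by transcript length and by the sample's mapped total, and a difference is the log2 ratio of FPKM + 1, for which 2-fold was the cut-off. Depth, estimated from the steps between low FPKM values, was about 14200000 to 14900000 fragments in the 3 shallower lines and 23900000 in sh-Luc. Exact Poisson intervals (95%) from these estimated fragments cover counting error only, not the spread between cultures. The targeted gene Cacul1 had 9.61 FPKM in FLAG, 11.8 FPKM in FLAG-CACUL1, 10.3 FPKM in sh-Luc and 5.39 FPKM in sh-CACUL1. Its log2 ratios, 0.27 in FLAG-CACUL1 against FLAG and -0.82 in sh-CACUL1 against sh-Luc, were both under the cut-off. These are RNA values, and the authors checked the overexpression and the knockdown at the protein level, by western blot. Of the 2 endothelial and 1 epithelial markers measured none exceeded 2.64 FPKM in any line, whereas the immune-associated genes Cd14 and Lyz2 reached 42.2 and 66.5 FPKM in FLAG-CACUL1. Summed FPKM of the 14 measured adipocyte markers was 10700 in FLAG against 973 in FLAG-CACUL1 and 19100 in sh-CACUL1 against 1870 in sh-Luc, so the members were read against lines that carried very different adipocyte programs. In bulk RNA, fewer marker-positive cells and less marker RNA per cell cannot be told apart.

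Most of the surface markers were higher in FLAG-CACUL1 than in the FLAG control. In FLAG-CACUL1 against FLAG, 5 of 8 members (Ly6a, Thy1, Pdgfrb, Pdgfra and Vcam1) were at least 2-fold higher, 1 (Dlk1) was at least 2-fold lower, and Cd44 and Eng stayed within the cut-off. Over all 13085 genes 14.7% passed the cut-off, 7.51% upward and 7.22% downward. The median log2 ratio was 1.45 over the members and 0.09 over all genes. In sh-CACUL1 against sh-Luc, 4 members (Pdgfrb, Cd44, Vcam1 and Pdgfra) were at least 2-fold lower and 2 (Thy1 and Dlk1) at least 2-fold higher, with Ly6a and Eng within the cut-off. The background was 21.3% of all genes, 4.94% upward and 16.4% downward, and the medians were -1.12 over the members and -0.30 over all genes.

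Rescaling of the samples moved the balance of higher and lower genes over the whole table. For sh-CACUL1 against sh-Luc the deposited values gave 647 higher and 2141 lower genes, quantile normalization 1178 and 1084, and median-of-ratios scaling 1231 and 975. In FLAG-CACUL1 against FLAG the 983 higher and 945 lower genes became 755 and 1169 after median-of-ratios scaling. Among the members the counts past 2-fold, 5 higher and 1 lower, then 2 higher and 4 lower, were the same under both scalings. Relative to the median of all genes, the 4 lower members of sh-CACUL1 lay between -2.57 (Pdgfrb) and -1.47 (Pdgfra) on the log2 scale.

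**Figure D1:**
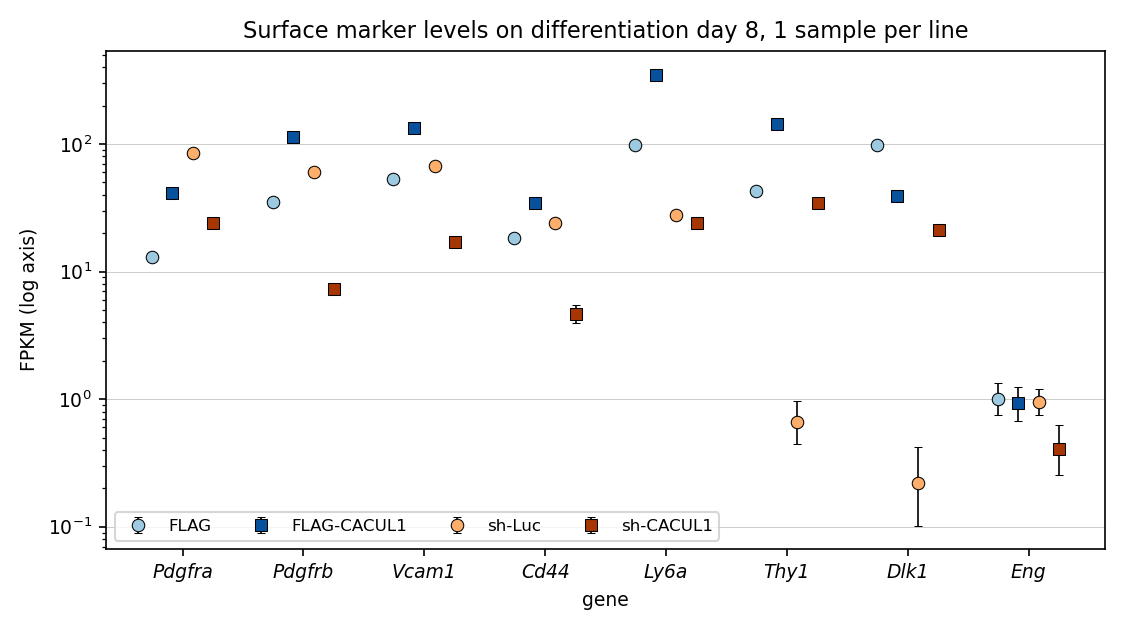
FPKM of each member (log axis) in each of the 4 lines, 1 point per sample, with bars for the 95% counting interval where it is wider than the point. Pdgfrb, Vcam1 and Cd44 follow one order across the lines, Thy1 and Dlk1 drop below 1 FPKM in sh-Luc, and Eng stays near or under 1 FPKM in every line.

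Both PDGF receptors were higher in FLAG-CACUL1 than in FLAG and lower in sh-CACUL1 than in sh-Luc. Pdgfra (NM_001083316), on the plus strand of chromosome 5 (GRCm38, bases 75152292 to 75198215), had 13.0 FPKM in FLAG, 40.9 FPKM in FLAG-CACUL1, 84.9 FPKM in sh-Luc and 24.2 FPKM in sh-CACUL1. Its highest level was thus in the sh-Luc control and its lowest in the FLAG control, so the controls lay further apart than either line from its own control. FLAG-CACUL1 gave a log2 ratio of 1.58 to FLAG, and sh-CACUL1 one of -1.77 to sh-Luc.

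The promoter of Pdgfra is shown because this gene gave opposite ratios to its own controls and yet a 6.51-fold gap between the controls. The 250 bases before the RefSeq start of the gene (GRCm38.p6, chr5:75152001-75152250, plus strand, from RefSeq) had a GC content of 54.4% and 4 CpG dinucleotides, which are in capitals. The median over all 32851 promoters was 6.
Pdgfra: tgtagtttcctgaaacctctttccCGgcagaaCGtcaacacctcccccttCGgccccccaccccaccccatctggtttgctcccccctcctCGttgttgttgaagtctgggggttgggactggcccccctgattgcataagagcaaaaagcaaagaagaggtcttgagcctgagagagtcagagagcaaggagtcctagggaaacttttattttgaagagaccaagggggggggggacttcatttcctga

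Pdgfrb (NM_001146268), on the plus strand of chromosome 18 from 61045150 to 61085061, had 34.8 FPKM in FLAG, 113 FPKM in FLAG-CACUL1, 60.1 FPKM in sh-Luc and 7.34 FPKM in sh-CACUL1. FLAG-CACUL1 was highest and sh-CACUL1 lowest, with both controls between them, and the log2 ratios were 1.67 and -2.87. Of all genes, 0.703% had a lower ratio than Pdgfrb in sh-CACUL1. The FPKM ratio of Pdgfrb to Pdgfra was 2.67 in FLAG and 2.76 in FLAG-CACUL1 but 0.708 in sh-Luc and 0.303 in sh-CACUL1. Vector, selection drug and the history of each line cannot be told apart in this split.

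Genes around the receptors were taken from a list of PDGF ligands and signalling partners, of which 7 were measured. In FLAG-CACUL1 1 of 7 was at least 2-fold higher, none was lower and 6 were within the cut-off, with a median log2 ratio of 0.75. In sh-CACUL1 2 were at least 2-fold lower, 1 after either rescaling, with a median of -0.81. Over all genes 7.51% were higher in FLAG-CACUL1 (median 0.09) and 16.4% lower in sh-CACUL1 (median -0.30). The counts of so short a list are not read as set apart from these shares. Pdgfrl, which encodes a receptor-like protein, had 21.6 FPKM in FLAG, 70.4 FPKM in FLAG-CACUL1, 79.7 FPKM in sh-Luc and 7.56 FPKM in sh-CACUL1. Its log2 ratios were 1.66 and -3.24, and the controls differed by -1.84. FLAG-CACUL1 was below sh-Luc, so the upward direction of Pdgfrl reversed with the other control. The ligand gene Pdgfa had 9.89, 17.3, 15.9 and 5.39 FPKM in the same order, and its ratio passed 2-fold in sh-CACUL1 only (0.75 and -1.41). Ptpn11, which encodes the phosphatase SHP2 downstream of the receptors, had ratios of 0.93 and -0.81.

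Vcam1 and Cd44 shared the order of Pdgfrb across the lines, highest in FLAG-CACUL1 and lowest in sh-CACUL1. Vcam1 (NM_011693), on the minus strand of chromosome 3 from 116109949 to 116129688, had 52.8 FPKM in FLAG, 134 FPKM in FLAG-CACUL1, 67.1 FPKM in sh-Luc and 17.1 FPKM in sh-CACUL1. The log2 ratios were 1.33 and -1.91, while the controls differed by only 1.27-fold in FPKM. Cd44 (NM_001039150), on the minus strand of chromosome 2 from 102811141 to 102901665, had 18.4 FPKM in FLAG, 34.6 FPKM in FLAG-CACUL1, 23.9 FPKM in sh-Luc and 4.66 FPKM in sh-CACUL1. Its ratio was under 2-fold in FLAG-CACUL1, at 0.88, and past it in sh-CACUL1, at -2.14. The FPKM ratio of Cd44 to Vcam1 ranged from 0.258 in FLAG-CACUL1 to 0.356 in sh-Luc, so these genes kept a similar proportion over all 4 lines.

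Promoters were matched for 4 of the 8 members, Pdgfra, Cd44, Dlk1 and Eng. Among these the Cd44 promoter is shown because Cd44 differed little between the controls, as Eng did. Whether promoter sequence bears on the levels was not tested. The 250 bases of Cd44 (GRCm38.p6, chr2:102901666-102901915, minus strand, from RefSeq) had a GC content of 56.4% and 5 CpG dinucleotides, in capitals. The median over all promoters was 6.
Cd44: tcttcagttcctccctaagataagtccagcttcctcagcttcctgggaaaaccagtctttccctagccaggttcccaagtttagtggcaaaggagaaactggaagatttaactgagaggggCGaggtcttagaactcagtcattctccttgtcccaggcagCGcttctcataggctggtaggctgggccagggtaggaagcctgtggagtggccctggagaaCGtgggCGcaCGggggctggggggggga

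Partners of these adhesion proteins were taken from lists of their own. Of 6 measured integrin and kinase partners of VCAM1 and THY1, all 6 were at least 2-fold lower in sh-CACUL1 than in sh-Luc (median log2 ratio -1.93), and 4 of 6 were after quantile normalization or median-of-ratios scaling. None of the 6 passed 2-fold in FLAG-CACUL1 (median 0.03, and -0.02 or -0.07 after the rescalings). Itgb1, the β subunit that pairs with the α4 chain to bind VCAM1, had 96.3 FPKM in FLAG, 129 FPKM in FLAG-CACUL1, 220 FPKM in sh-Luc and 52.8 FPKM in sh-CACUL1. Its ratios were 0.42 and -2.04, against -0.60 and -2.01 for the αv subunit gene Itgav and 0.55 and -2.58 for the kinase gene Fyn. Of 12 measured ligands and partners of CD44, 3 were higher and 1 lower by 2-fold in FLAG-CACUL1 (median 0.39), and none was higher and 4 were lower in sh-CACUL1 (median -0.54). In sh-CACUL1 quantile normalization gave 1 higher and 4 lower (median -0.21), and median-of-ratios scaling 1 higher and 3 lower (median -0.18). For both lists the background in FLAG-CACUL1 was 7.51% of all genes higher and 7.22% lower (median 0.09). In sh-CACUL1 it was 4.94% higher and 16.4% lower (median -0.30). Vcan, which encodes the hyaluronan-binding proteoglycan versican, had ratios of 1.06 and -2.14, close to those of Cd44 itself. Spp1, which encodes the CD44 ligand osteopontin, had 148 FPKM in FLAG and 171 FPKM in FLAG-CACUL1 but 51.2 FPKM in sh-Luc and 5.29 FPKM in sh-CACUL1. Cd74, the invariant chain that can associate with CD44, had ratios of 2.55 and -1.40.

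**Figure D2:**
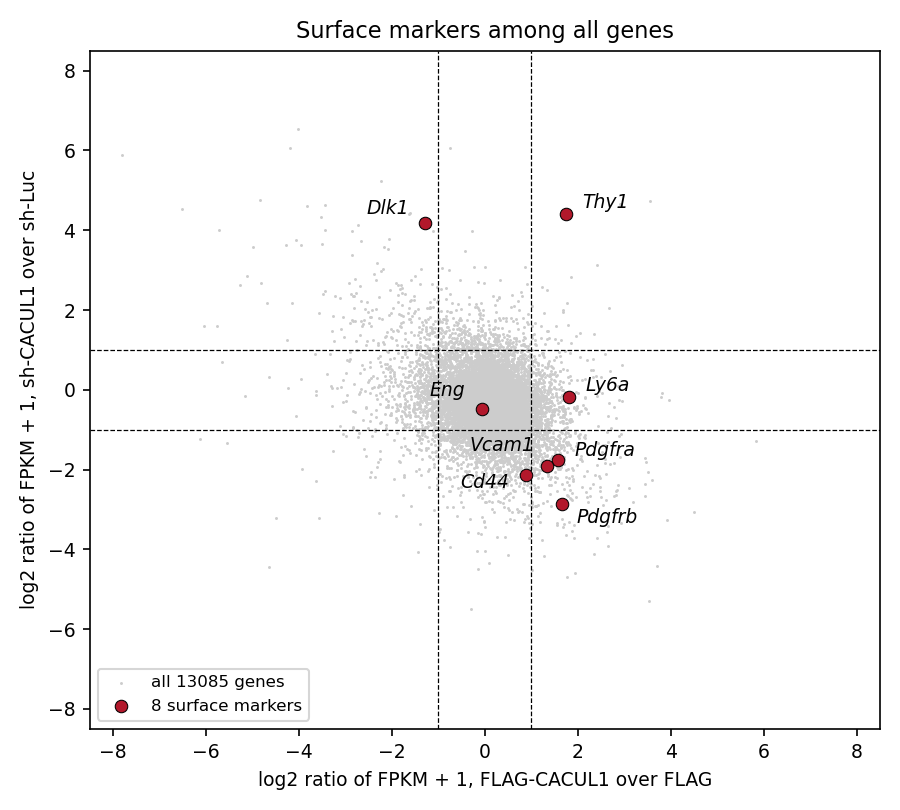
Log2 ratio of FPKM + 1 in FLAG-CACUL1 over FLAG (x axis) and in sh-CACUL1 over sh-Luc (y axis) for all 13085 genes (grey points) and the 8 members (red points), with dashed lines at 2-fold. Pdgfra, Pdgfrb and Vcam1 lie in the lower right corner, Dlk1 in the upper left, Thy1 in the upper right, and Ly6a, Cd44 and Eng between the lines on at least 1 axis.

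Pdgfra, Pdgfrb and Vcam1 were thus 3 of 8 members past 2-fold upward in FLAG-CACUL1 and downward in sh-CACUL1, comparisons that share no sample. Of all genes 3.02% had this pattern. Dlk1 was the 1 member with the reverse pattern, against 1.69% of all genes, and Thy1 the 1 member past 2-fold upward in both, against 0.283%. No member was past 2-fold downward in both, as 0.802% of all genes were. These patterns depend on the controls. With the other control Pdgfra reversed in both (-1.04 and 0.84), and Pdgfrb (0.90) and Vcam1 (0.99) were under 2-fold in FLAG-CACUL1. The sh-Luc values of Dlk1 and Thy1 rest on about 9 and 28 fragments.

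The genes of the lipid-anchored proteins were higher in FLAG-CACUL1, as both receptors were, but neither was past 2-fold lower in sh-CACUL1. Ly6a (NM_001271416), which encodes stem cell antigen 1 and lies on the minus strand of chromosome 15 from 74994877 to 74998031, had 97.9 FPKM in FLAG, 347 FPKM in FLAG-CACUL1, 27.6 FPKM in sh-Luc and 24.2 FPKM in sh-CACUL1. Both FLAG lines were above both hairpin lines, and Ly6a was the highest of the 8 members in FLAG and in FLAG-CACUL1. The log2 ratio of 1.81 in FLAG-CACUL1 was the highest among the members. In sh-CACUL1 the ratio was -0.18, and it became 0.27 after median-of-ratios scaling, so its sign depended on the scaling. Of the stretches of 31 bases in Ly6a transcripts, 31.9% also occurred in transcripts of other genes, mostly Ly6c1, so the split of reads between these genes is uncertain.

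Ly6c1, which lies 46.0 kb from Ly6a and is the next measured gene on that side, had 69.2 FPKM in FLAG, 201 FPKM in FLAG-CACUL1, 8.83 FPKM in sh-Luc and 28.5 FPKM in sh-CACUL1. It was higher in both treated lines than in their controls, by 1.52 and 1.59 on the log2 scale. Ly6e, 35.0 kb away on the other side, was within the cut-off in both (-0.12 and 0.51). Of 5 measured relatives of Ly6a, 2 were at least 2-fold higher in FLAG-CACUL1 and none was lower, and 2 were higher and 1 was lower in sh-CACUL1. After either rescaling none was lower by 2-fold there. Of all genes 7.51% were higher in FLAG-CACUL1, and 4.94% were higher and 16.4% lower in sh-CACUL1. Ly6h had 29.6 FPKM in sh-CACUL1 and at most 1.75 FPKM in the other lines, a ratio of 3.48, and Lynx1, which encodes a modulator of nicotinic receptors, had ratios of 1.59 and -1.14.

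Thy1 (NM_009382), on the plus strand of chromosome 9 from 44043384 to 44048579, had 42.4 FPKM in FLAG, 144 FPKM in FLAG-CACUL1, 0.663 FPKM in sh-Luc and 34.3 FPKM in sh-CACUL1. The sh-Luc line stood apart, with about 28 fragments and a counting interval of 0.448 to 0.975 FPKM, while the other 3 lines had at least 34.3 FPKM. The log2 ratio was 1.74 in FLAG-CACUL1. In sh-CACUL1 it was 4.41, which the added 1 FPKM compresses: on FPKM alone sh-CACUL1 was 51.8-fold above sh-Luc. No stretch of 31 bases of Thy1 was shared with another gene. The next measured genes on either side differed far less between the controls, with 2.98 FPKM of Nectin1 in sh-Luc and 3.73 FPKM in FLAG, and 0.533 FPKM of Usp2 in sh-Luc and 1.97 FPKM in FLAG.

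Dlk1 had the widest range of the members in FPKM, 441-fold against 218-fold for Thy1, while on log2(FPKM + 1) Thy1 ranged over 6.45 and Dlk1 over 6.33. Dlk1 (NM_001190703), on the plus strand of chromosome 12 from 109452823 to 109463336, had 97.2 FPKM in FLAG, 39.4 FPKM in FLAG-CACUL1, 0.220 FPKM in sh-Luc and 21.2 FPKM in sh-CACUL1. About 9 fragments stood behind the sh-Luc value, whose counting interval was 0.101 to 0.419 FPKM. The highest and lowest levels of this gene were both in control lines, FLAG and sh-Luc. The log2 ratio was -1.28 in FLAG-CACUL1, so the inhibitor of adipogenesis was lower in the line with the lower adipocyte markers. In sh-CACUL1, a line where adipocyte markers were high, the ratio was 4.19 with the added 1 FPKM, 6.06 with 0.1 FPKM and 6.59, or 96.3-fold, on FPKM alone. The FLAG line had both the highest Dlk1 and the second highest summed adipocyte markers.

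The Dlk1 promoter is shown because this gene was close to undetected in 1 line and abundant in the others. Thy1 was low in the same line but had no matched promoter. Its 250 bases (GRCm38.p6, chr12:109452573-109452822, plus strand, from RefSeq) had a GC content of 54.8% and 8 CpG dinucleotides, in capitals, against a median of 6 over 32851 promoters. Of these promoters 57% had fewer CpG dinucleotides than Dlk1.
Dlk1: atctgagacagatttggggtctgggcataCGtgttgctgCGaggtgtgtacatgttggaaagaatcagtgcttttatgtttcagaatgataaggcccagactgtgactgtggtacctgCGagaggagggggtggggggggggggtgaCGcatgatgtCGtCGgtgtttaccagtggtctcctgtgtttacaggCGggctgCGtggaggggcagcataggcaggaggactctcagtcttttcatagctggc

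On both strands of these windows 7 motifs were searched, namely the TATA box TATAAA, the CCAAT box CCAAT, the GC box GGGCGG, the E-box CANNTG, AP-1 TGANTCA, SMAD CAGACA and the NF-kB pattern of GGG and CC with 5 bases between them. None of these letters occurred in the Dlk1 window. Pdgfra had 1 E-box match starting 182 bases before the gene and 2 overlapping NF-kB matches starting 135 and 134 bases before it, and Cd44 had 1 NF-kB match, 45 bases before the gene. Eng, the other member with a matched promoter, had 1 E-box and 2 NF-kB matches. Of all promoters of this length 66.2% had an E-box match and 45.8% an NF-kB match, so both are common.

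Of 7 measured genes for DLK1 shedding, targets and relatives, 1 was at least 2-fold higher in FLAG-CACUL1, none was lower and 6 were within the cut-off (median log2 ratio 0.26). In sh-CACUL1 4 were lower and none was higher (median -1.38). Of all genes 7.51% were higher in FLAG-CACUL1 (median 0.09) and 16.4% lower in sh-CACUL1 (median -0.30). Sox9, a transcription factor that DLK1 is known to maintain in preadipocytes, had 5.47 FPKM in FLAG, 16.3 FPKM in FLAG-CACUL1, 20.8 FPKM in sh-Luc and 3.15 FPKM in sh-CACUL1. Its log2 ratios of 1.42 and -2.39 were opposite in sign to those of Dlk1 in both comparisons with the own controls. With FLAG as the other control, sh-CACUL1 was lower for both genes, with 3.15 against 5.47 FPKM for Sox9 and -2.14 for Dlk1. With sh-Luc as the other control, FLAG-CACUL1 was lower for Sox9 and higher for Dlk1 (5.05). The sh-Luc value of Dlk1 rests on about 9 fragments. Fn1, which encodes the matrix protein fibronectin, had 928, 986 and 745 FPKM in FLAG, FLAG-CACUL1 and sh-Luc but 35.8 FPKM in sh-CACUL1, a ratio of -4.34. Notch1, the receptor gene related to Dlk1, had ratios of 0.87 and -1.38. Rtl1, the next measured gene in the imprinted cluster that holds Dlk1, had at most 0.226 FPKM in any line.

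Eng was the lowest member in FLAG, FLAG-CACUL1 and sh-CACUL1. Eng (NM_001146348), on the plus strand of chromosome 2 from 32646595 to 32682669, had 1.01 FPKM in FLAG, 0.931 FPKM in FLAG-CACUL1, 0.953 FPKM in sh-Luc and 0.410 FPKM in sh-CACUL1. The first 3 values have overlapping counting intervals. In FLAG-CACUL1 the log2 ratio was -0.06. In sh-CACUL1 it was -0.47 with the added 1 FPKM and -1.22 without it, with an exact binomial counting interval of -1.98 to -0.50 for the latter, from about 21 and 78 fragments. Of 9 measured co-receptors, ligands and processing genes of endoglin, 1 was at least 2-fold higher in FLAG-CACUL1 (median 0.12, and -0.01 after median-of-ratios scaling). In sh-CACUL1 3 were lower (median -0.78), or 2 after either rescaling (medians -0.46 and -0.32). The shares of all genes were 7.51% higher in FLAG-CACUL1 (median 0.09) and 16.4% lower in sh-CACUL1 (median -0.30). With 9 genes the counts are not read as set apart from these shares. Mmp14, whose product is a membrane protease that sheds endoglin, had 191 FPKM in FLAG, 750 FPKM in FLAG-CACUL1, 932 FPKM in sh-Luc and 145 FPKM in sh-CACUL1. Its ratios were 1.97 and -2.68, and the controls differed by -2.28. FLAG-CACUL1 was below sh-Luc, so the upward direction reversed with the other control, while sh-CACUL1 was below both controls. The ligand genes Tgfb1 and Tgfb3 had ratios of -0.39 and 0.44 in FLAG-CACUL1 and of -1.55 and -1.03 in sh-CACUL1, the last of these close to the cut-off.

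Within a line the order of the members differed. In FLAG it was Ly6a, Dlk1, Vcam1, Thy1, Pdgfrb, Cd44, Pdgfra and Eng, and the counting intervals of Ly6a (92.7 to 103 FPKM) and Dlk1 (93.3 to 101 FPKM) overlapped. In FLAG-CACUL1 it was Ly6a, Thy1, Vcam1, Pdgfrb, Pdgfra, Dlk1, Cd44 and Eng, and the intervals of Pdgfra (39.6 to 42.2 FPKM) and Dlk1 (36.9 to 42.0 FPKM) overlapped. In sh-Luc it was Pdgfra, Vcam1, Pdgfrb, Ly6a, Cd44, Eng, Thy1 and Dlk1, so that Pdgfra was seventh in the FLAG control and first here, and the intervals of Eng (0.757 to 1.20 FPKM) and Thy1 (0.448 to 0.975 FPKM) overlapped. In sh-CACUL1 it was Thy1, Ly6a, Pdgfra, Dlk1, Vcam1, Pdgfrb, Cd44 and Eng, where Ly6a and Pdgfra were level at 24.2 FPKM and the interval of Ly6a (21.7 to 26.9 FPKM) overlapped that of Dlk1 (19.5 to 23.1 FPKM). Summed over the members the total was 358 FPKM in FLAG, 854 FPKM in FLAG-CACUL1, 265 FPKM in sh-Luc and 133 FPKM in sh-CACUL1.

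A wider list of mesenchymal and preadipocyte genes, 22 of them measured, had the direction of the receptors more often than the reverse. In FLAG-CACUL1 7 were at least 2-fold higher and 2 lower (median log2 ratio 0.37). The shares of all genes were 7.51% and 7.22% (median 0.09). In sh-CACUL1 1 was higher and 12 were lower (median -1.09), against 4.94% and 16.4% of all genes (median -0.30), so lower values prevailed over the whole table too. Quantile normalization left 10 of the 12, beside 1178 higher and 1084 lower genes over the whole table. Median-of-ratios scaling left 9, beside 1231 higher and 975 lower genes. S100a4, a fibroblast gene, had 474 FPKM in FLAG, 1761 FPKM in FLAG-CACUL1, 2682 FPKM in sh-Luc and 564 FPKM in sh-CACUL1. Its ratios were 1.89 and -2.25, against 1.42 and -1.91 for Zfp521, which encodes a repressor of adipogenic commitment, and 1.10 and -2.91 for the matrix gene Dpt. In FLAG against sh-Luc 4 genes of this list were at least 2-fold higher and 7 lower (median -0.32), against 8.58% and 12.4% of all genes. The controls differed by -2.5 for S100a4, -2.9 for Zfp521 and -0.38 for Dpt. For S100a4 and Zfp521, FLAG-CACUL1 was below sh-Luc and sh-CACUL1 above FLAG, so both directions reversed with the other control. Adipocyte markers went the other way, with 14 of 14 at least 2-fold lower in FLAG-CACUL1 (median -3.99) and 13 of 14 at least 2-fold higher in sh-CACUL1 (median 2.63). Against the control of its own vector, Dlk1 thus had the signs of the adipocyte markers and not those of Pdgfra, Pdgfrb and Vcam1. The signs of Dlk1 and Pdgfra reversed with the other control, and the sh-Luc value of Dlk1 rests on about 9 fragments. Across the lines Dlk1 did not follow the summed adipocyte markers. It had 39.4 FPKM in FLAG-CACUL1, with a sum of 973, and 21.2 FPKM in sh-CACUL1, with a sum of 19100.

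Genes of other cell types were measured beside the members. Acta2, which encodes smooth muscle actin and was 1 of 6 measured mural markers, had 2.90 FPKM in FLAG, 23.5 FPKM in FLAG-CACUL1, 33.1 FPKM in sh-Luc and 1.27 FPKM in sh-CACUL1, while Cspg4 was at most 0.0889 FPKM. Acta2 was lower in FLAG-CACUL1 than in sh-Luc, so its upward direction there reversed with the other control. The mural list summed to 12.0, 29.9, 35.3 and 8.42 FPKM in that order. In FLAG-CACUL1 1 marker was past 2-fold upward, and in sh-CACUL1 2 were upward and 1 downward. Of all genes 7.51% were higher in FLAG-CACUL1, and 4.94% were higher and 16.4% lower in sh-CACUL1. The 3 immune markers measured summed to 23.8, 109, 8.17 and 5.23 FPKM, with Csf1r at most 0.607 FPKM. The endothelial pair Pecam1 and Vwf stayed under 1 FPKM in every line, and the epithelial gene Krt8 ranged from 0.117 FPKM in sh-CACUL1 to 2.64 FPKM in sh-Luc. Whether these genes or the adipocyte program bear on the member differences was not tested.

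**Figure D3:**
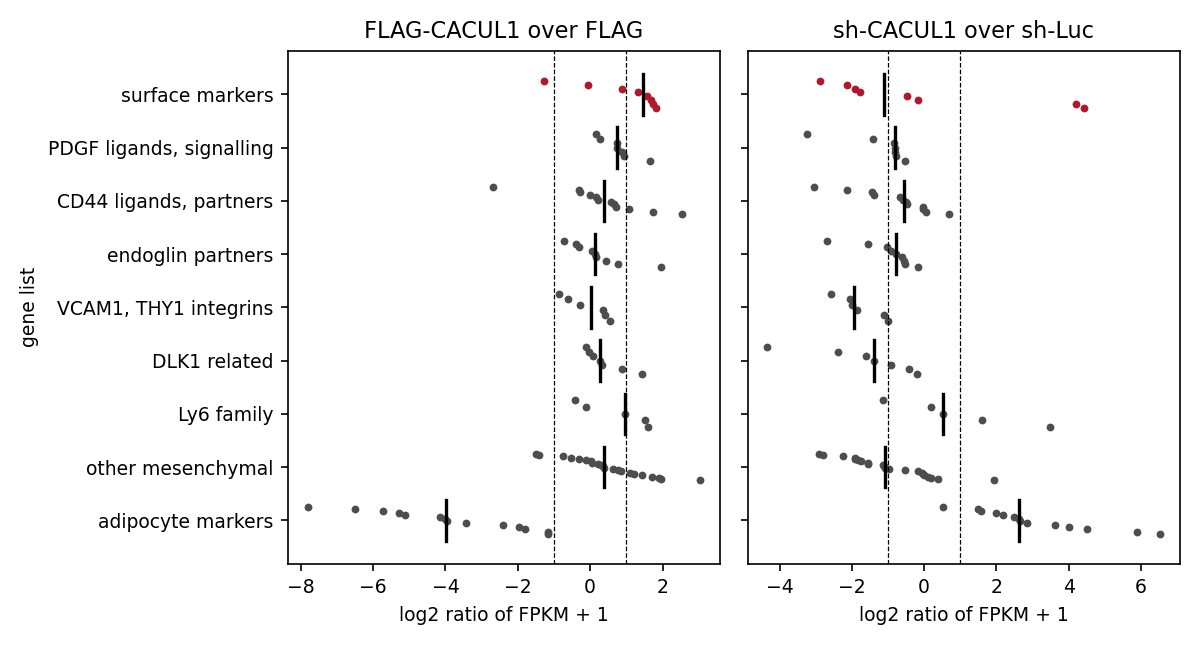
Log2 ratio of FPKM + 1 for each gene (points) of the members (red) and of 8 related lists (grey), in FLAG-CACUL1 over FLAG (left) and sh-CACUL1 over sh-Luc (right), with a bar at each median and dashed lines at 2-fold. The members have a median of 1.45 on the left and -1.12 on the right, where Thy1 and Dlk1 stand apart above 4, and adipocyte markers lie on the opposite sides.

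The control lines also differed from each other in the members. In FLAG against sh-Luc 3 members (Dlk1, Thy1 and Ly6a) were at least 2-fold higher and 1 (Pdgfra) was lower, 4 of 8 in all, where 21.0% of all genes passed the cut-off, 8.58% upward and 12.4% downward. The log2 ratios were 6.33 for Dlk1, 4.71 for Thy1, 1.79 for Ly6a and -2.61 for Pdgfra. Pdgfrb (-0.77), Cd44 (-0.36), Vcam1 (-0.34) and Eng (0.04) were within the cut-off. Adipocyte markers differed in the same comparison, with 11 of 14 at least 2-fold higher in FLAG, none lower and a median of 2.29, and whether this bears on the members was not tested. This comparison shares the FLAG sample with FLAG-CACUL1 against FLAG and the sh-Luc sample with sh-CACUL1 against sh-Luc. Vector, selection drug and the history of each line cannot be told apart between the controls.

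With the other control, Pdgfra had a ratio of -1.04 for FLAG-CACUL1 against sh-Luc and 0.84 for sh-CACUL1 against FLAG, both reversed. Dlk1 reversed in both as well, to 5.05 and -2.14, and Thy1 reversed for sh-CACUL1, to -0.30. Pdgfrb (0.90 and -2.10), Vcam1 (0.99 and -1.57) and Cd44 (0.52 and -1.78) kept their signs with either control, although the FLAG-CACUL1 values of Pdgfrb and Vcam1 were then just under 2-fold. Ly6a was higher in FLAG-CACUL1 than in either control, by 1.81 and 3.60, and in sh-CACUL1 its ratio to FLAG was -1.97.

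**Figure D4:**
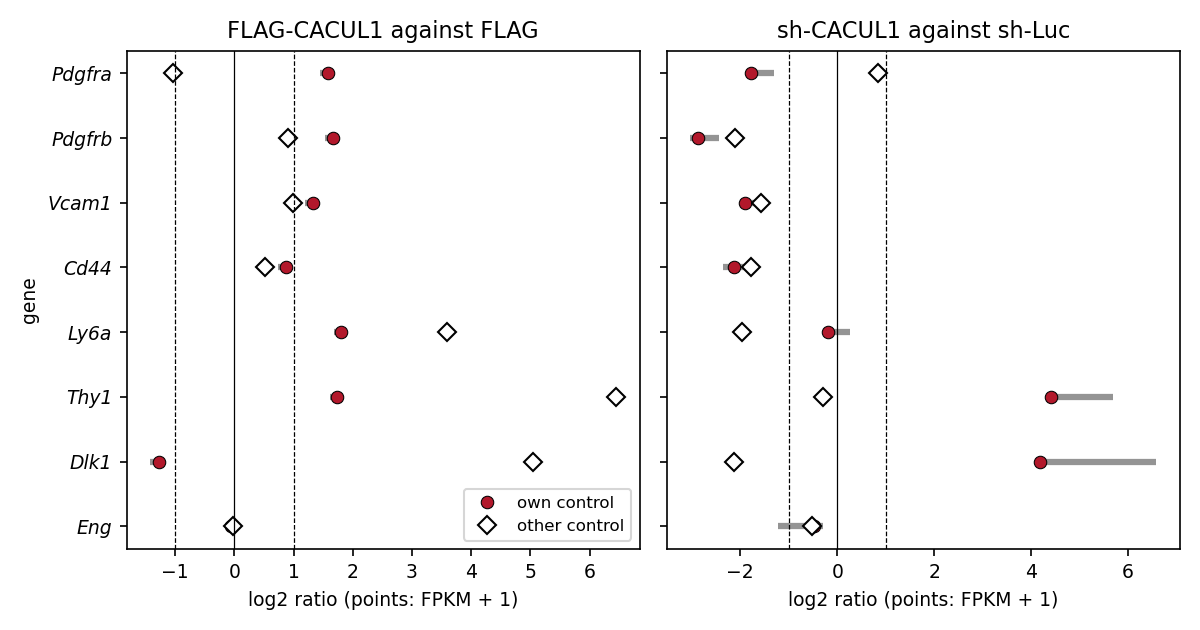
Log2 ratio of each member for FLAG-CACUL1 (left) and sh-CACUL1 (right) against the control with its own vector (red points) and against the other control (open diamonds). Grey bars span the pseudocount, filter, scaling and row alternatives with the own control, the solid line marks 0 and the dashed lines 2-fold. Pdgfra and Dlk1 change sides in both panels, Thy1 in the right panel only, and Pdgfrb, Vcam1 and Cd44 stay on one side.

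The genes whose profile over the 4 samples was nearest to each member were found by the Euclidean distance between centred log2(FPKM + 1) profiles, among 9563 genes with at least 1 FPKM in every sample. With 4 points and this many genes, near profiles are common, and the distances are a description. For Cd44 they were Micall2 (distance 0.165) and Vcan (0.183), for Vcam1 the lysophosphatidic acid receptor gene Lpar1 (0.167) and the transcription factor gene Klf4 (0.316), and for Pdgfrb the interferon signalling gene Stat2 (0.304) and the CDK inhibitor gene Cdkn2b (0.409). Pdgfra was nearest to Adh7 (0.259) and Cdc42ep1 (0.282), and Ly6a to Cd14 (0.398) and Aebp1 (0.482). Thy1 and Dlk1 are themselves under 1 FPKM in sh-Luc, so the search left out genes as low there as they are, and nearer profiles may lie among those. Among the genes searched Ifi27l2a (1.93) and Enpp5 (2.03) were nearest to Thy1, and Anxa8 (1.22) and Ifi27l2a (1.97) to Dlk1. Anxa8, an annexin gene, had 125 FPKM in FLAG, 28.6 FPKM in FLAG-CACUL1, 1.91 FPKM in sh-Luc and 32.7 FPKM in sh-CACUL1. Among the members themselves Cd44 and Vcam1 were nearest (0.383), followed by Pdgfrb and Vcam1 (0.754), whereas Pdgfra and Pdgfrb were 2.56 apart and Thy1 and Dlk1 2.16.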

How the data were processed

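RNA-seq of 4 stable 3T3-L1 lines, 1 sample each, was analysed. The authors deposited FPKM values for 13110 rows of RefSeq transcripts per sample. A company prepared and sequenced the libraries, the submitters' processing notes name build mm10, and the aligner, the FPKM program and any filter are not given in the sources used here. Depth and normalization between samples can shift all FPKM of a line together.

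Rows were joined to symbols through GENCODE M21 (12914 rows) or RefSeq (149 rows), 47 rows kept their identifiers, and rows of a symbol were summed to 13085 genes. Log2 ratios used a pseudocount of 1 FPKM, which understates the differences of genes with low FPKM, and a cut-off of 2-fold. Depth was estimated from rows of 1 transcript of at least 3000 bases, and fragments per gene from the median transcript length. With 1 sample per group there was no test. Members and lists were chosen with earlier results of these data known. Named genes are the members, Cacul1, in each list at most 3 genes with at least 1 FPKM in a sample and the largest mean absolute ratio over both CACUL1 comparisons, and the 2 nearest profiles of members with a log2 range of at least 1. Genomic neighbours and genes named at the lowest levels of a marker list were added after their values were seen. The code was tested on simulated data. There were 9 alternatives: a pseudocount of 0.1 FPKM or none, at least 1 FPKM in any or in all samples, quantile normalization, median-of-ratios scaling, the row with the highest mean FPKM, a cut-off of 3-fold and the other control. Python 3.11.15, numpy 2.4.6, pandas 2.3.3, scipy 1.17.1 and matplotlib 3.10.9 were used.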

Additional observations from a re-analysis of the deposited data

How the results depend on the processing

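In FLAG-CACUL1 against FLAG 6 members passed 2-fold. A cut-off of 3-fold left 3 and the filter of 1 FPKM in all samples 4, where 15.2% of all genes passed. With sh-Luc as the other control 4 passed, 3 upward and 1 downward, against 9.9% of all genes. Ly6a and Thy1 kept their direction there, Pdgfra and Dlk1 passed in the reversed direction, and Pdgfrb and Vcam1 were under the cut-off. In FLAG against sh-Luc 4 passed, and the filter of 1 FPKM in all samples left 2, because it removes Thy1 and Dlk1. This filter also removes Eng, which was not past 2-fold there. In sh-CACUL1 against sh-Luc 6 passed, with 4 under the filter of 1 FPKM in all samples and 7 without a pseudocount or with 0.1 FPKM, where Eng was added. With FLAG as the other control 5 passed, all downward, against 22.9% of all genes. Ly6a was added there and Dlk1 passed in the reversed direction. With the other control the ratio reversed for Pdgfra (-1.04) and Dlk1 (5.05) in FLAG-CACUL1, and for Pdgfra (0.84), Dlk1 (-2.14) and Thy1 (-0.30) in sh-CACUL1. Over all genes the share past the cut-off went from 14.7% to 24.2% with a pseudocount of 0.1 FPKM, 28.8% with none and 5.07% at 3-fold in FLAG-CACUL1 against FLAG. It went from 21.3% to 36.7% with no pseudocount and 7.15% at 3-fold in sh-CACUL1 against sh-Luc, and from 21.0% to 36% and 7.6% in FLAG against sh-Luc. No called member reversed under the pseudocount, filter, scaling and row alternatives. Leaving out a replicate was not possible with 1 sample per group. No paired analysis was possible because each group has 1 sample. Depth limits Thy1 and Dlk1 in sh-Luc and Eng in all lines.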
